A study of Mus musculus with 6 samples.

Results

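Amino acid transporters of the plasma membrane were described in motor neuron cultures that had received blood fluid of mice carrying a Huntington's disease transgene. The 10 members were chosen by gene name, namely Slc7a11, Slc7a5, Slc3a2, Slc7a1, Slc7a3, Slc38a2, Slc38a1, Slc1a4, Slc1a5 and Slc6a9, out of 19613 genes measured. RNA was profiled on exon arrays from 6 embryoid body cultures, that is, cell aggregates grown from HBG3 embryonic stem cells with a green fluorescent reporter driven by the promoter of Hb9 (Mnx1), a motor neuron gene, and differentiated to spinal motor neurons. Each culture had received 5% blood fluid for 24 h, and per the methods of the study this fluid came from male carriers of the strain B6CBA-Tg(HDexon1)62Gpb/3J at 10 weeks of age. These mice carry a transgene with the start of the human huntingtin gene and a long CAG repeat. Plasma is the word of the labels and serum that of the series title and of the methods, and "serum" is used here. All 6 arrays, titled 2, 4, 5, 6, 7 and 8, formed a single group, and arrays with serum of non-carrier mice were not analysed here. The values below are therefore levels and their variation between 6 cultures that received the same kind of serum, and no difference can be assigned to the disease model. The study speaks of separate serum samples and of groups of assays that each used their own batch of differentiated cells. The labels do not say which donor or which batch belongs to an array, so the SDs and p-values cover only the spread between these arrays.

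Cells take up amino acids through solute carriers that differ in their substrates and in what drives them. Some exchange one amino acid for another, others let amino acids flow in along with sodium, and several work only as a pair of a light chain that transports and a heavy chain that brings it to the cell surface. The transcription factor ATF4 is translated more when amino acids run short or the endoplasmic reticulum is under stress, and many genes of amino acid uptake and synthesis are known among its targets. Slc7a11 is also a known target of the oxidative stress factor NRF2. Of the 10 genes, Slc1a4, Slc1a5, Slc7a1 and Slc7a5 were among the genes of a classifier that the study built on serum from a different disease model, of amyotrophic lateral sclerosis, and then applied to the Huntington's samples, so that the choice of the 10 was not independent of the study.

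ATF4 binds a composite element whose core is TGATGNAA, and this core was searched on both strands of the promoter windows of RefSeq, which run from 250 bases before to 50 bases after a start site in the mouse assembly GRCm38.p6. Windows existed for 6 of the 10 genes and numbered 9, with 3 for Slc6a9, 2 for Slc7a1 and 1 for each other gene. Shares over all windows are per window and not per gene. The core was present in those of Slc7a11 and Slc1a4, which are shown since both genes are set against Atf4 below, and in 3.97% of all 32851 windows. The window of Slc7a11, the light chain of the cystine and glutamate exchanger, lies on the minus strand at chr3:50443564-50443863, and capitals mark its 2 matches, the first beginning 66 bases before the start site on the strand of the gene and the second 47 bases before it on the opposite strand. The window of Slc1a4, a sodium-dependent exchanger of small neutral amino acids such as serine and alanine, lies on the minus strand at chr11:20332664-20332963, and capitals mark its single match, which begins 4 bases before the start site on the opposite strand.
Slc7a11: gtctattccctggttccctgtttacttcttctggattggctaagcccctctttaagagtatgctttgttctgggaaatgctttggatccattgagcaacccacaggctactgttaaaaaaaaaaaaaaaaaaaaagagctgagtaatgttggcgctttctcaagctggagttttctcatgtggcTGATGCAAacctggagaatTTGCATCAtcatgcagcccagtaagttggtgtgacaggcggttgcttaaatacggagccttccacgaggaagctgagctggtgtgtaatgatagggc
Slc1a4: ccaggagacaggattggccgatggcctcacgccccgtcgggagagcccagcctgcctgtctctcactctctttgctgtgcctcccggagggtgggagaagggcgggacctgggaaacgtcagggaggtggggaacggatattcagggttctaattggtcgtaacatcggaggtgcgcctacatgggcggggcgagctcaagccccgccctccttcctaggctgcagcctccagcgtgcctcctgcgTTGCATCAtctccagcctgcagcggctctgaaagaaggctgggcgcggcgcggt
The core of the NRF2 element, searched as TGACNNNGC, was found in 12.4% of all windows and in none of these 2. It was found in at least 1 window of Slc6a9, Slc7a1 and Slc38a2 and not in that of Slc3a2. These matches describe letters in a window, and whether any factor binds there in these cells was not measured.

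The cultures were checked against markers of the cell types they could hold before the transporters were read. Background was set at a mean log2 intensity of 7.47, below which 95% of 1032 olfactory receptor genes lay, and 12793 genes (65.2%) exceeded it. All 7 motor neuron markers in the table were above this level, with a mean log2 intensity between 9.19 and 9.41 on each array. So were 4 of 5 progenitor markers, with Pax6 below, 3 of 3 floor plate markers and 4 of 5 astroglial markers, with the mature astrocyte gene Aqp4 below. Of the other lists, 2 of 6 pluripotency markers were above background, with Pou5f1, Zfp42, Dppa5a and Esrrb below, as were 2 of 6 endoderm and mesoderm markers, 1 of 3 endothelial markers and 1 of 4 blood markers, with Ptprc below. The mean log2 intensity of the pluripotency list lay between 7.68 and 7.80 on each array, and the means of the latter 3 lists lay below background on every array. The cultures are a mixture of cells, in which fewer cells of a type and less RNA per cell cannot be told apart. The average correlation of an array with the others was lowest for replicate 8, at r = 0.992, and reached 0.995 for others. Some relations of the members are therefore also given below without replicate 8. Those of the other gene lists with the members are over all 6 arrays.

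All 10 transporters were above background on average and lay in the highest of 4 equal bins into which the genes above background were split by level. Slc3a2 had the highest intensity, with a mean log2 value of 13.00 ± 0.104 (SD, n = 6), a linear mean of 8224, and 99.7% of genes below it. Slc1a5 had the lowest, at 10.05 ± 0.175 (SD, n = 6), and still exceeded 84.8% of genes. Of the intensity summed over the 10 genes, Slc3a2 gave 20.8% ± 0.35 and Slc7a5 16.8% ± 0.30, followed by Slc38a2 with 13.2% ± 0.61 (SD, n = 6 each). Slc7a11 gave 5.14% ± 0.29 and Slc1a5 2.69% ± 0.17 (SD, n = 6 each). Probes of different genes capture RNA unequally, and the deposited values are not per length, so this is an order of array intensities and not of transcript amounts.

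**Figure D1:**
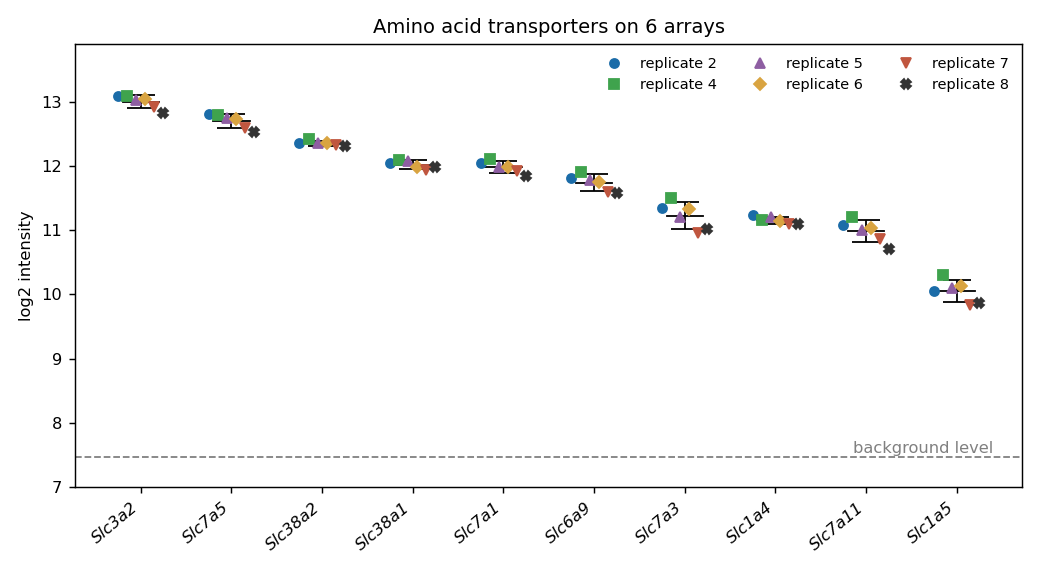
Log2 intensity (y axis) of the 10 amino acid transporters (x axis), with 1 point per array and the mean with its SD. The dashed line is the background level of 7.47. Slc3a2 and Slc7a5 stand highest, and Slc7a3, Slc7a11 and Slc1a5 are spread most widely over the arrays.

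The surface glycoprotein encoded by Slc3a2, known as CD98 or 4F2hc, is the heavy chain that partners several of the light chains. Slc3a2 had log2 intensities of 13.09, 13.09, 13.03, 13.05, 12.92 and 12.83 on replicates 2, 4, 5, 6, 7 and 8, the order kept for all values by array below. Its light chain Slc7a5, known as LAT1, exchanges large neutral amino acids such as leucine, and had 12.80, 12.80, 12.75, 12.73, 12.59 and 12.53, a mean of 12.70 ± 0.114 (SD, n = 6). The intensity of Slc3a2 was above that of Slc7a5 on 6 of 6 arrays, by 0.30 ± 0.021 (SD) on the log2 scale. The other light chain, Slc7a11 (xCT), takes up cystine in exchange for glutamate and so feeds glutathione synthesis. Its values of 11.09, 11.21, 11.003, 11.04, 10.87 and 10.71 averaged 10.99 ± 0.176 (SD, n = 6), with a 1.41-fold range between the highest and the lowest array. For all 3 genes replicate 8 was the lowest array and replicate 7 the next.

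Slc7a1 (CAT-1) and Slc7a3 (CAT-3) transport arginine, lysine and other cationic amino acids, and need no heavy chain. Slc7a1 had log2 intensities of 12.04, 12.10, 11.98, 11.99, 11.93 and 11.85, a mean of 11.98 ± 0.089 (SD, n = 6). Slc7a3, a form known mainly from neural tissue, had 11.35, 11.51, 11.20, 11.33, 10.96 and 11.02, a mean of 11.23 ± 0.211 (SD, n = 6). It had the widest spread of the 10, with a 1.46-fold range, and its SD exceeded that of 98.8% of the genes in its level bin. Slc7a1, whose highest and lowest arrays lay 1.19-fold apart, exceeded 81.0% of them. Both genes were highest on replicate 4, and their lowest arrays were replicate 8 for Slc7a1 and replicate 7 for Slc7a3.

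Slc38a2 (SNAT2) and Slc38a1 (SNAT1) carry glutamine, alanine and other small neutral amino acids into the cell with sodium. Slc38a2, which is known to respond to a shortage of amino acids, had the narrowest spread of the 10. Its log2 intensities were 12.35, 12.42, 12.36, 12.35, 12.32 and 12.31, a mean of 12.35 ± 0.037 (SD, n = 6), and only 16.3% of the genes in its level bin had a smaller SD. Slc38a1 had 12.04, 12.10, 12.09, 11.99, 11.93 and 11.99, a mean of 12.02 ± 0.064 (SD, n = 6). Slc38a2 exceeded Slc38a1 on 6 of 6 arrays, by 0.33 ± 0.041 (SD) on the log2 scale, whereas Slc38a1 and Slc7a1 next to it in the order differed by 0.040 ± 0.065 (SD) with Slc38a1 higher on 4 of 6 arrays, which is within their spread.

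Slc1a4 (ASCT1) and Slc1a5 (ASCT2) exchange neutral amino acids, the latter including glutamine. Slc1a4 had log2 intensities of 11.23, 11.16, 11.21, 11.15, 11.10 and 11.09, a mean of 11.16 ± 0.056 (SD, n = 6). It could not be ranked against its neighbours, since Slc7a3 was above it on 3 of 6 arrays and Slc7a11 below it on 5 of 6, with ranges that overlapped. Slc1a5 had 10.05, 10.31, 10.11, 10.13, 9.84 and 9.87, and lay below Slc7a11 on 6 of 6 arrays by 0.93 ± 0.077 (SD) on the log2 scale. Its SD exceeded that of 97.7% of the genes in its level bin, and that of Slc1a4 exceeded 47.0%. The glycine transporter Slc6a9 (GlyT1), which takes up glycine with sodium and chloride, had 11.82, 11.91, 11.78, 11.75, 11.60 and 11.57, a mean of 11.74 ± 0.129 (SD, n = 6) and a 1.26-fold range. Its intensity was below that of Slc7a1 on 6 of 6 arrays, by 0.24 ± 0.051 (SD), and above that of Slc7a3 on 6 of 6, by 0.51 ± 0.096 (SD), both on the log2 scale.

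The variation between arrays ran the same way in nearly all of the transporters. The mean log2 intensity of the 10 genes was 11.79, 11.86, 11.75, 11.75, 11.61 and 11.58. Of the 10 genes, 8 were highest on replicate 4, and Slc7a5 and Slc1a4 on replicate 2. Replicate 8 was the lowest for 7 and replicate 7 for Slc7a3, Slc1a5 and Slc38a1, so that these 2 arrays were the lowest pair for 10 of 10. Among all genes above background 5.95% had replicates 7 and 8 as their 2 lowest arrays, and 14.7% had replicate 4 as the highest. The mean of the 7 motor neuron markers ran otherwise, and was lowest on replicate 4, at 9.19, and highest on replicate 8, at 9.41. This depended on the markers averaged. The mean of Mnx1, Olig2, Lhx3 and Isl1 was lowest on replicate 7, at 9.03, and highest on replicate 5, at 9.23. On replicates 7 and 8 Lhx3 was lowest, at 8.51 and 8.54, and Isl1 highest, at 10.44 and 10.50. These 2 genes were picked after their values were seen. Whether cell composition had a part in the values of the transporters was not tested. Of the 10 transporters, 8 had an SD above the median of their level bin, the exceptions being Slc38a2 and Slc1a4.

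**Figure D2:**
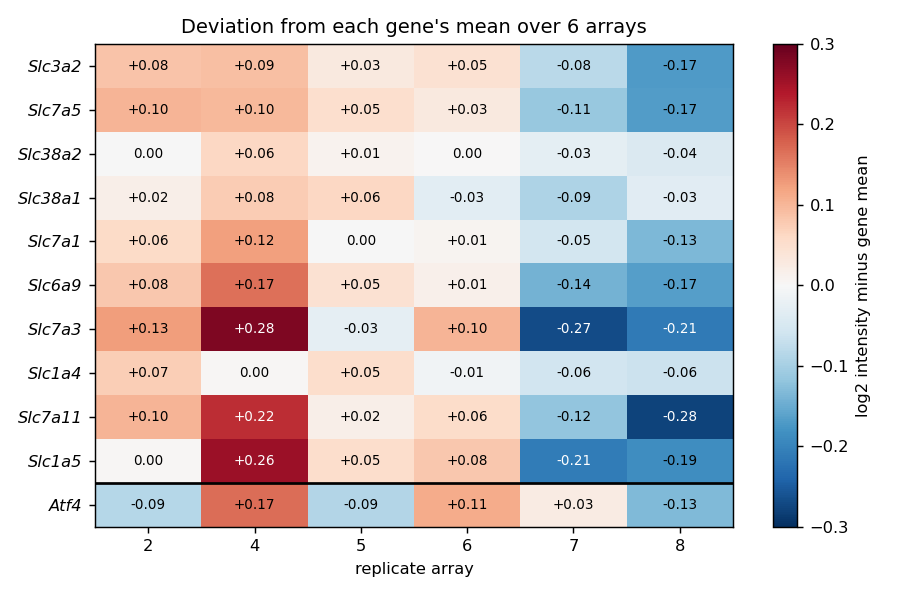
Deviation of each transporter and of Atf4 (rows) from its own mean on the 6 arrays (columns), as a difference in log2 intensity given by colour and number. Replicates 7 and 8 lie below the mean for all 10 transporters and replicate 4 lies above it, whereas Atf4 is above its mean on replicate 7.

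Pairs of transporters were then compared over the arrays with Pearson's r, Spearman's rho and exact permutation p-values, two-sided, over the 720 pairings of 6 arrays. All 45 pairs had a positive r, from 0.49 for Slc38a2 with Slc1a4 to 0.99 for Slc7a11 with Slc7a1, and the median was 0.88. In 21 of the 45 pairs r was over 0.9, which held for 0.911% of the pairs of a transporter with any other gene above background. An unadjusted exact p for r under 0.05 was reached by 32 pairs, and with a positive r by 2.79% of the pairs with other genes. That for rho was reached by 18 pairs, and with a positive rho by 1.86% of the pairs with other genes. The test is two-sided, and these shares leave out the negative relations with other genes. After Benjamini-Hochberg adjustment over the 12792 genes of each fit, 0 of 45 pairs passed with limma, and 0.0% of genes did so in the fits on any transporter but Slc6a9. The lowest adjusted p of a pair was 0.0505 with limma, for Slc7a3 in the fit on Slc6a9, and 0.459 with the exact permutation test. With 6 arrays the exact p could not go below 0.00139. After adjustment over 12792 genes a pass would have needed many genes at that lowest p at once. The adjusted exact p-values therefore cannot tell whether a relation is absent.

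The members that act as partners in the membrane were among the closest. Slc3a2 and its light chain Slc7a5 had r = 0.985 (exact permutation p = 0.00556) and rho = 0.89 (exact permutation p = 0.0333), and r without replicates 7 and 8, the arrays farthest from the median of Slc7a5, was 0.88. Slc3a2 and Slc7a11 had r = 0.97 and rho = 1.0 (exact permutation p = 0.00139 and 0.00278), and r without replicates 4 and 8, the farthest for Slc7a11, was 0.998. Without replicates 7 and 8 instead, r of Slc3a2 with Slc7a11 was 0.875, close to the 0.876 of Slc3a2 with Slc7a5. The highest r joined Slc7a11 to Slc7a1, which are no known partners, with r = 0.99 and rho = 1.0 (exact permutation p = 0.00139 and 0.00278), and r was 0.96 without replicates 4 and 8. These 3 pairs kept r at 0.98, 0.93 and 0.98 when replicate 8 alone was left out. Slc6a9 had the highest mean r with the other members, 0.92, followed by Slc7a5 with 0.89 and Slc7a11 with 0.88.

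**Figure D3:**
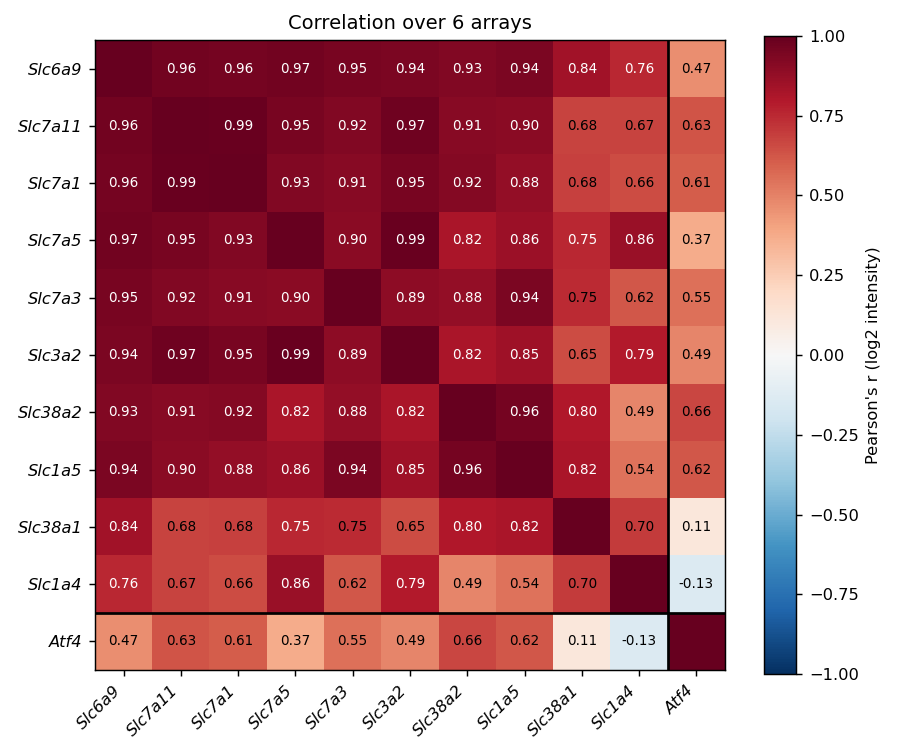
Pearson's r over the 6 arrays between the transporters and with Atf4 (rows and columns), given by colour and number. All 45 values between transporters are above 0, with the lowest for Slc1a4 and Slc38a1, and the values with Atf4 run from -0.13 to 0.66.

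Members of the same family were not always close. Slc1a4 and Slc1a5 had r = 0.54 and rho = 0.43 (exact permutation p = 0.292 and 0.419), and r was 0.59 without replicates 2 and 8 but 0.36 without replicate 8. Slc38a2 and Slc38a1 had r = 0.80 and rho = 0.89 (exact permutation p = 0.0458 and 0.0333), and r was 0.90 without replicates 4 and 8. The cationic pair of Slc7a1 and Slc7a3 had r = 0.91 and rho = 0.94 (exact permutation p = 0.0139 and 0.0167), and r was 0.92 without replicates 4 and 8. Slc38a2 lay closest to Slc1a5, a member of another family, with r = 0.96 and rho = 0.89 (exact permutation p = 0.00972 and 0.0333), and r was 0.95 without replicates 4 and 8. The mean r with the other members was lowest for Slc1a4, at 0.68, and for Slc38a1, at 0.74.

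The pairs rested in part on the 2 low arrays. Without replicate 8 the median r over pairs was 0.86, and the lowest was 0.25, for Slc38a2 with Slc1a4. When replicates 7 and 8 were both left out, a choice made after their values were seen, the median was 0.72 over 4 arrays and 39 of 45 pairs stayed above 0. The lowest was then -0.67, for Slc1a4 with Slc1a5, while Slc7a11 with Slc7a1 had 0.99 and Slc38a2 with Slc1a5 had 0.96. No p-value is given over 4 arrays.

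Atf4 itself was well above background, with log2 intensities of 11.43, 11.68, 11.43, 11.62, 11.54 and 11.38, a mean of 11.51 ± 0.122 (SD, n = 6). Like most of the transporters it was highest on replicate 4 and lowest on replicate 8, but unlike all of them it was above its mean on replicate 7. In a limma fit of every gene on the intensity of Atf4, 0 of 12792 genes (0.0%) and 0 of the 10 transporters passed an adjusted p under 0.05. At an unadjusted p under 0.05, 698 genes (5.46%) and 0 transporters passed with limma, and 593 genes (4.64%) and 0 transporters with the exact permutation test. Of the transporters 9 of 10 had a positive r with Atf4, the exception being Slc1a4. The median r of the 10 was 0.52, beside 0.0082 over all genes tested, and the median slope was 0.43 log2 units per log2 unit of Atf4, beside 0.0043. These medians are descriptions, since the 10 genes vary together over the same arrays.

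**Figure D4:**
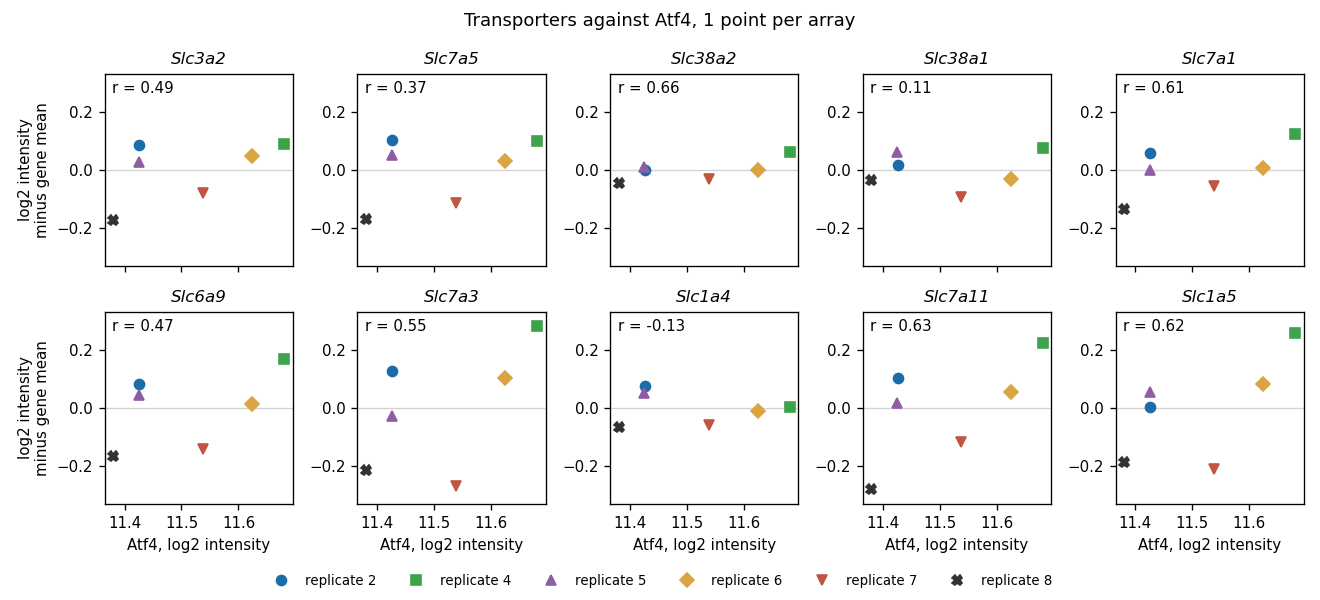
Log2 intensity of each transporter minus its own mean (y axes) against the log2 intensity of Atf4 (x axis), with 1 point per array. Marker and colour give the replicate. Replicates 4 and 6 have the highest Atf4, and replicate 7 combines an Atf4 of 11.54 with low values of the transporters, down to -0.27 for Slc7a3.

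The highest r with Atf4 among the transporters was that of Slc38a2, at 0.66 with rho = 0.60 (exact permutation p = 0.149 and 0.242), but its slope was small, at 0.20 ± 0.16 (SE). Slc7a11 followed, with r = 0.63 and rho = 0.71 (exact permutation p = 0.189 and 0.136), a slope of 0.90 ± 0.40 (SE) and an unadjusted limma p of 0.052. An r above that of Slc7a11 was found in 7.67% of all genes tested. Slc1a5, Slc7a1 and Slc7a3 had r of 0.62, 0.61 and 0.55, and Slc3a2, Slc6a9 and Slc7a5 had r of 0.49, 0.47 and 0.37. The lowest values were those of Slc38a1, with r = 0.11, and Slc1a4, with r = -0.13 and rho = 0.14 (exact permutation p = 0.806 and 0.803). The 2 genes whose promoter windows held the ATF4 core, Slc7a11 and Slc1a4, lay near opposite ends of this order. Since 4 of the 10 genes had no window and bases outside the windows were not searched, this cannot tell whether the core goes with r. Adjusted over all genes tested, the p-values of the 10 lay between 0.911 and 0.985 with limma and between 0.96 and 0.98 with the exact permutation test.

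Leaving out the 2 arrays farthest from the median of Atf4, replicates 4 and 6, lowered r to 0.12 for Slc7a11, 0.13 for Slc7a1 and -0.05 for Slc38a2. It was lowered to -0.36 for Slc1a5 and -0.39 for Slc7a3. Replicates 4 and 6 had the highest Atf4, and the other 4 arrays covered only 11.38 to 11.54. Over so narrow a range a low r cannot tell whether a relation is absent. The values also moved when 1 array was left out. Without replicate 2, r was 0.81 for Slc7a11, 0.81 for Slc7a1, 0.73 for Slc3a2 and 0.63 for Slc7a5, and without replicate 7 it was 0.85 for Slc1a5 and 0.80 for Slc7a3. Without replicate 4, it was 0.36 for Slc7a11, 0.25 for Slc38a2 and 0.27 for Slc1a5. Without replicate 8, r was 0.40 for Slc7a11, 0.52 for Slc38a2 and 0.13 for Slc3a2. It fell to -0.02 for Slc7a5, whose slope turned from 0.35 to -0.015. The slope of Slc38a1, 0.06 with all arrays, was -0.27 without replicate 4 and -0.017 without replicate 8, and that of Slc1a4, -0.06, was 0.048 without replicate 2 and 0.014 without replicate 5. The amount of ATF4 protein, whose translation is regulated, was not measured on these arrays.

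Slc6a9 was the only transporter whose own fit passed any gene, with 14 of 12792 genes (0.109%), 11 rising with it (0.086%) and 3 falling (0.0235%) at an adjusted limma p under 0.05, and 0 of the other 9 transporters among them. They were looked at after their values were seen. Fdft1, the squalene synthase of cholesterol synthesis, ran opposite to Slc6a9, with log2 intensities of 11.09, 10.90, 11.17, 11.24, 11.52 and 11.55 (limma adjusted p = 0.00371). Also falling with rising Slc6a9 was Slc5a7, the choline transporter of cholinergic neurons and 1 of the motor neuron markers (limma adjusted p = 0.0415). Cth, which makes cysteine from cystathionine, rose with Slc6a9 (limma adjusted p = 0.0456), as did Aldh1l2, a mitochondrial enzyme of folate metabolism (limma adjusted p = 0.0415), along with genes that included Cyb5r1, Stk32a, Trim66, Serpinf1, Thbs2, Reep6 and Iah1. All 14 kept their direction in 12 of 12 alternatives fitted with limma. Fdft1 stayed past the threshold in 10 of these, Cth in 4, and Slc5a7 and Aldh1l2 in 3 each. The whole count was 0 without replicate 4, without the trend of variance on level and with the exact permutation test.

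Among the genes that ran most like the 10 transporters, by mean r with them over the 6 arrays, were Mks1 and Mef2b, each at 0.92. They were named by rule as a description, and 1.75% of all genes above background that are not members had a mean r over 0.8.

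Amino acid transporters outside the 10 were read from a list. Of 44 listed, 42 were in the table and 21 above background. The highest were Slc7a6, another light chain of Slc3a2, at a log2 intensity of 10.70 ± 0.020, the lysosomal arginine sensor Slc38a9 at 10.16 ± 0.069 and Slc36a4, which transports proline and tryptophan, at 10.12 ± 0.076 (SD, n = 6 each). Each of the 10 except Slc1a5 had a mean above all 21. Replicates 7 and 8 were the 2 lowest arrays for 3 of the 21, beside 5.95% of all genes above background. The median of their mean r with the 10 transporters was 0.18, beside 0.057 over all other genes. Slc43a1, a transporter of large neutral amino acids, had a mean r of 0.80 and Slc6a15 of 0.77, whereas the taurine transporter Slc6a6 ran opposite, at -0.82, with log2 intensities of 9.67, 9.69, 9.71, 9.70, 9.77 and 9.89. These 3 were chosen after their values were seen. In the Atf4 fit 0 of the 21 passed with limma in either direction (0.0% of all genes), their median slope was 0.068, and 11 of 21 had a positive r. In the 10 fits on transporters 0 of 21 passed.

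**Figure D5:**
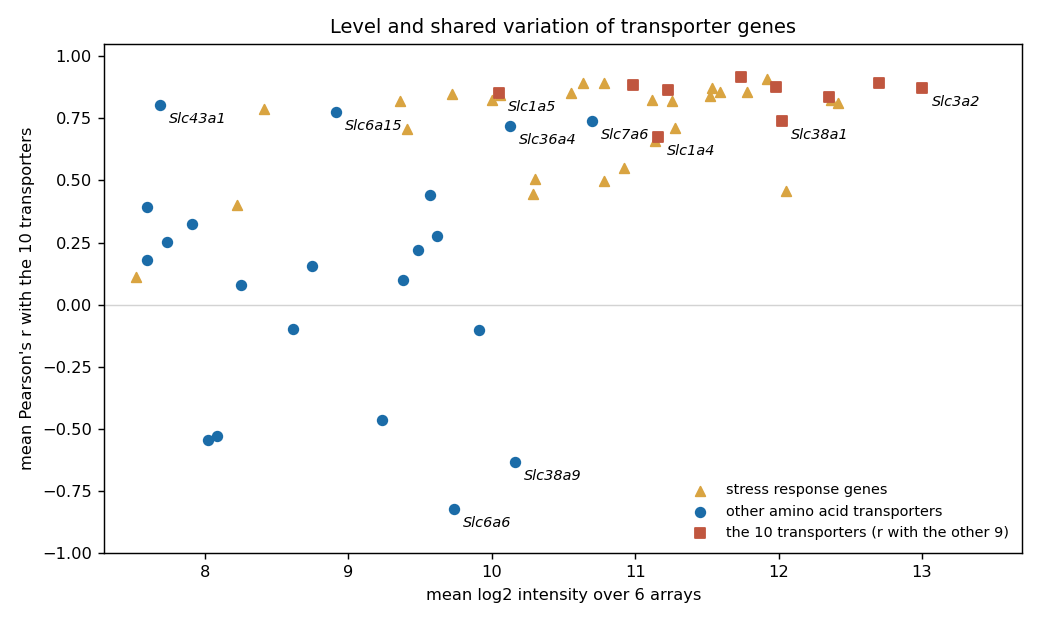
Mean r with the 10 transporters (y axis) against mean log2 intensity (x axis), for the 10 (each with the other 9) and for the 21 other amino acid transporters above background. Triangles are the 27 genes of the integrated stress response described below. The 10 lie between 0.68 and 0.92 and mostly to the right, and the other transporters spread from -0.82 to 0.80.

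Genes of the integrated stress response, from a list of 29 with 27 in the table and all of these above background, had a median r of 0.31 with Atf4. The median of their mean r with the 10 transporters was 0.82, the highest being the serine and glycine enzyme Shmt2 at 0.91, the alanine aminotransferase Gpt2 at 0.89 and Cth at 0.89, and the lowest Cbs at 0.11, all 4 chosen after their values were seen. Replicates 7 and 8 were the 2 lowest arrays for 19 of the 27, beside 5.95% of all genes above background. Cth in the fit on Slc6a9 was the only 1 of the 27 that passed a limma fit on a transporter. In the Atf4 fit 0 of 27 passed with limma in either direction, with a median slope of 0.28 and a positive r for 21 of 27. The smallest limma p-values were those of Eif4ebp1, a repressor of translation, with a slope of 0.71 ± 0.26 (SE) and an adjusted p of 0.883, and of Nupr1, Ddit4, Gars and Chac1. Chac1, which breaks down glutathione, had log2 intensities of 12.40, 12.50, 12.48, 12.45, 12.29 and 12.09, again lowest on replicates 7 and 8. Of 11 genes of the NRF2 list, 10 were above background and Nqo1 below. Replicates 7 and 8 were the 2 lowest arrays for 0 of these 10, which over so few genes cannot be told from the share of 5.95%. The median of their mean r with the transporters was 0.28, beside 0.057 over all genes that are not members. Nfe2l2, which encodes NRF2, had a mean r of 0.075 at a level of 9.82 ± 0.07 (SD, n = 6).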

How the data were processed

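Per the methods of the study, total RNA was converted to amplified sense-strand DNA carrying biotin, and this DNA was hybridized to the 6 arrays. Each deposited value is the linear intensity of a gene on an array. The methods state that the authors ran Robust Multi-array Averaging and averaged the exons annotated to each gene; the labels name Affymetrix Expression Console and RMA. Which arrays were normalized together, and the genome build of the annotation, are not given in the sources used here, and signal shared between near-identical genes is not stated to have been separated. The values do not include the later step in which the study corrected genes for variation between batches of neurons. That step used a linear model on Olig2, Mnx1, Isl1 and Lhx3, built from assays with non-carrier serum.

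Log2 values were taken without a pseudocount. Array medians ran from 296 to 311, and the number of arrays limits the precision. Each gene above background was fitted on the log2 intensity of Atf4, and of each transporter in turn, with limma 3.58.1 in R 4.3.3 (lmFit and eBayes with a trend on level, two-sided, Benjamini-Hochberg over all genes tested, threshold 0.05). A pair counted only when both of its fits passed with the same sign. Pearson's r and Spearman's rho had exact permutation p-values from scipy 1.17.1. The code was tested on simulated data. Named genes were the 10 transporters, Atf4, Nfe2l2, the 3 other transporters highest by level, the 5 stress response genes with the smallest p in the Atf4 fit and the 3 genes most like the transporters; others are named as chosen after their values were seen. Some genes that met these rules are not reported here. The members and lists were chosen with earlier results of these data known. Of the listed genes, Slc1a3, Slc38a6, Psph, Wars and 1 motor neuron marker were not matched in the table. Promoter windows came from RefSeq, assembly GRCm38.p6. The labels name no batch, so within-batch values could not be given. Alternatives were the filter, the scaling of arrays, the variance trend, an exact permutation test, a pseudocount of 16, a motor neuron covariate (Mnx1, Olig2, Lhx3 and Isl1 averaged) and each array left out.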

Additional observations from a re-analysis of the deposited data

How the results depend on the processing

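No paired analysis was possible because all arrays form a single group. The counts of transporters, other transporters and stress response genes passing the Atf4 fit, and of pairs of transporters passing, stayed at 0 under each alternative filter, scaling, variance model, test and covariate and with each array left out, and all 10 transporters stayed above background. The number of genes passing the fit on Slc6a9, 14, was 2 after median centring, 0 without the variance trend, 6 with the motor neuron covariate, 0 with the exact permutation test and 0 to 5 with an array left out (every array in turn). It was 11 with no filter, 18 with the stricter background and 16 after cyclic loess. The cause was not tested, except that fewer arrays lower what a fit can pass. The median r over pairs was 0.72 without replicates 7 and 8, chosen after seeing the data, and 0.86 to 0.92 with 1 array left out. With 1 array left out, slopes on Atf4 ran from -0.015 to 0.56 for Slc7a5 (negative without replicate 8), from -0.28 to 0.048 for Slc1a4 (positive without replicates 2 and 5) and from -0.27 to 0.17 for Slc38a1 (negative without replicates 4 and 8). The other 7 slopes stayed positive under the same alternatives fitted with limma. The SD of Slc3a2 was 0.069 without replicate 8 and that of Slc38a2 0.023 without replicate 4. With 6 arrays and transcriptome-wide adjustment, 0 relations of a transporter with another or with Atf4 passed the exact permutation test. That test could hardly pass any gene or pair, since many genes would have had to share its smallest p of 0.00139.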
